A study of Homo sapiens with 30 samples.

Results

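The regions described here are the stretches of chromosomes 1 to 22 at which all 10 peak lists of the study had a peak. Peaks of the 10 lists were merged wherever they overlapped by at least 1 bp, a list was called open at a merged region where it had a peak there, and the members were selected on those calls alone. Of 476170 merged regions, 78808 (16.6%) were open in all 10 lists, and 397362 were open in 1 to 9. Because the presence of a peak in every list chose the members, the number of lists and all that follows directly from it are description and were not tested.

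The peaks come from OmniATAC-seq, in which the transposase Tn5 cuts accessible DNA in isolated nuclei, on 30 libraries of 50000 cells each, in 10 groups of 3 replicates. All groups were wild-type cells of H1, a human embryonic stem cell line, so the data describe a single line. One peak list was deposited per group, so no list carries replicate values and the sequencing depth behind a list is unknown. On chromosomes 1 to 22 the lists held 162041 peaks (aNE) to 302355 peaks (pNE_H), with a median of 206788.

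The groups formed a branching series. Pluripotent cells on day 0 (hPSC) were kept in stem cell medium. Definitive ectoderm (DE, day 1) was made from them with A8301, Trametinib, C59 and LDN193189. From DE, anterior neural ectoderm (aNE, day 2) was made with A8301, LDN193189, C59 and Thiazovivin, and posterior neural ectoderm (pNE, day 2) with A8301, LDN193189, TTNPB, FGF2, XAV939 and Thiazovivin. On day 4, the cells of both origins had been moved to a telencephalon (aNE_T, pNE_T), midbrain (aNE_M, pNE_M) or hindbrain medium (aNE_H, pNE_H). The labels give XAV939, LDN193189 and FGF2 for the first day of forebrain medium, and the agents of the other day 4 media are not given in the sources used here. The listed start of NANOG, a pluripotency factor, lay in a region open in 5 lists (hPSC, DE, aNE, pNE and aNE_T). Its widest peak, 680 bp, was in hPSC. It is no check of the labels: of 8 pluripotency genes with a listed start, the other 7 were open in all 10 lists. ZFP42 was also widest in hPSC, while SOX2, DNMT3B and DPPA4 were narrowest there.

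A part of the accessible genome is open in nearly every cell type. It is made up largely of promoters rich in CpG dinucleotides, which serve genes that all cells use, and of sites bound by the insulator protein CTCF. CpG islands are often free of DNA methylation and of stable nucleosomes at the start site itself, also where the gene is silent, so an open promoter does not show that its gene is transcribed. In a bulk assay, a site open in few cells and a site weakly open in many cells cannot be told apart.

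The promoters below show what the starts inside and outside these regions looked like. The first 4 genes had a start in a region open in all 10 lists and are, in their class, the ones with the most bases covered by peaks of every list (for the pluripotency class SOX2); the last 2, an olfactory receptor and the fetal liver gene AFP, had a start in no region. Each sequence is the 250 bases upstream of the listed start, from RefSeq on GRCh38.p14, read 5′ to 3′ on the gene's strand, and capitals mark matches to the short motifs searched. They lie at chr14:49598711-49598960 (minus strand, RPS29), chr11:93784032-93784281 (plus, MED17), chr4:39977912-39978161 (minus, PDS5A), chr3:181711675-181711924 (plus, SOX2), chr11:7941709-7941958 (minus, OR10A3) and chr4:73435971-73436220 (plus, AFP).
RPS29: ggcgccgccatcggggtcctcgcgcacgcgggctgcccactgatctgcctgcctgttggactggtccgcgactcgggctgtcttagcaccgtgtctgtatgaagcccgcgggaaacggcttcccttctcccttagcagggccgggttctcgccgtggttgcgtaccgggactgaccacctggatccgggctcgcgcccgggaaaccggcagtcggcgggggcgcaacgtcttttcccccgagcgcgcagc
MED17: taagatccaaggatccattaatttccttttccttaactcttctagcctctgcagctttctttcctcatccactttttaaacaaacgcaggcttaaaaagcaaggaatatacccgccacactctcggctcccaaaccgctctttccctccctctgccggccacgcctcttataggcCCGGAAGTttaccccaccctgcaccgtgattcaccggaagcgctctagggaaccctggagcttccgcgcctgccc
PDS5A: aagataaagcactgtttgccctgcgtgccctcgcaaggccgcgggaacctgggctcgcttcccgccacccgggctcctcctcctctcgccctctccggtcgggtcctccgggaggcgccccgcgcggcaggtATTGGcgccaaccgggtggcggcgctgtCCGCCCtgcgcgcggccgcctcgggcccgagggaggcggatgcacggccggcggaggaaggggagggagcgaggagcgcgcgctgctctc
SOX2: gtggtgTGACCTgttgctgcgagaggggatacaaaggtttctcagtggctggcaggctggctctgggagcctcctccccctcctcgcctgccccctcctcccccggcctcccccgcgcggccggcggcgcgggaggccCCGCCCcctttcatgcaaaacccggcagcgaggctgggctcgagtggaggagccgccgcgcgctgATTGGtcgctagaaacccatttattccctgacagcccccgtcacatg
OR10A3: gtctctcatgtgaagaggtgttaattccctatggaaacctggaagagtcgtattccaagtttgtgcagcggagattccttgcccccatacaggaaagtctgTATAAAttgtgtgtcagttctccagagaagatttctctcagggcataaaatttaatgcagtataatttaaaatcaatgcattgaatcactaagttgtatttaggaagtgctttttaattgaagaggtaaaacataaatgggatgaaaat
AFP: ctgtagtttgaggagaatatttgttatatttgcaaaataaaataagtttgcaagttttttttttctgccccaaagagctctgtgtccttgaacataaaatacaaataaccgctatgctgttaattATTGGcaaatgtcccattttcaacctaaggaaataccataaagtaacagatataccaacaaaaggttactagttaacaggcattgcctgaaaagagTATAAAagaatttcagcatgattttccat
RPS29, a protein of the small ribosomal subunit, had 31 CpG dinucleotides and a GC content of 69.6% in these 250 bases, with no motif match. PDS5A, a cohesin regulator, had 34 CpGs at 75.2% GC, with a CCAAT box and a GC box. SOX2, a factor of pluripotent and neural cells, had 20 CpGs at 68.8% GC, and MED17, a Mediator subunit, had 12 CpGs at 52.8% GC with 1 ETS match. OR10A3 had 2 CpGs at 36.4% GC and AFP had 1 at 31.6% GC, and both held a TATA match. A match is a description of the letters and not of a bound factor.

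The number of regions was largest at both ends of the scale. Regions open in 1 list numbered 159186, the count was lowest, 17361, at 8 lists, and it was 20481 at 9 lists against 78808 at 10. The all-10 regions covered 75.7 Mb of the 208.9 Mb in all merged regions (36.2%). They had a median width of 871 bp, against 258 bp for regions open in 1 to 9 lists and 594 bp for those open in 9, a difference that the merging rule itself can set. In 53566 of them (68.0%) each list had exactly 1 peak. Bases covered by peaks of all 10 lists, called the core here and summed over a region even where they lie in several pieces, came to 32.6 Mb with a median of 261 bp per region, and 2214 regions (2.81%) had no such base.

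**Figure D1:**
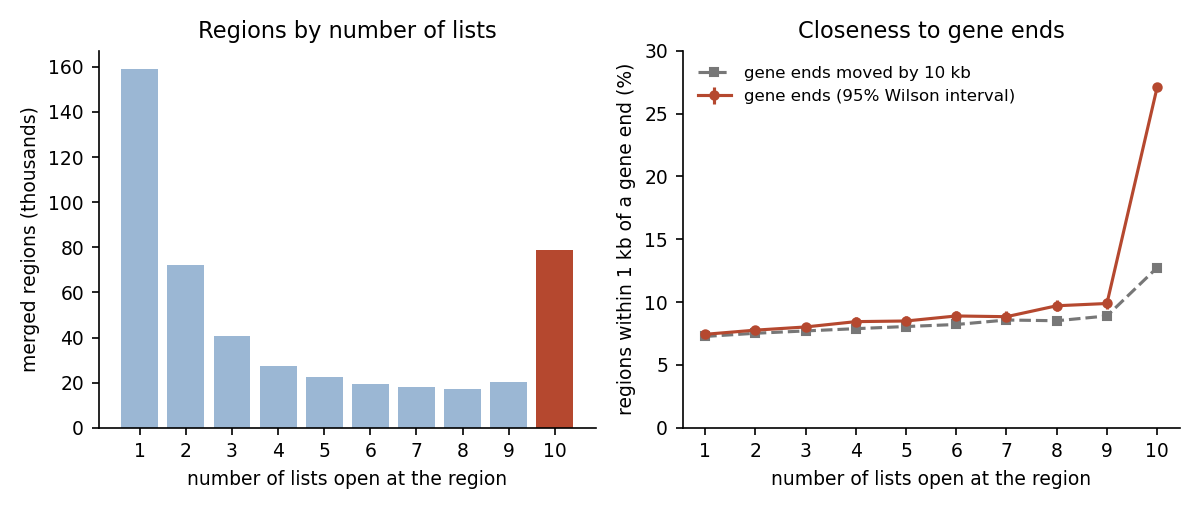
Left, the number of merged regions open in 1 to 10 lists, with the 78808 regions open in all 10 in red. Right, the percentage of regions within 1 kb of a gene end (points with 95% Wilson intervals) and the same with gene ends moved by 10 kb (squares): it stays between 7.44% and 9.89% for 1 to 9 lists and is 27.1% at 10.

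Regions open in all 10 lists lay closer to gene ends than the others. A gene end is either end of any gene of the RefSeq annotation of GRCh38.p14. Of the all-10 regions, 21353 (27.1%, Wilson 95% interval 26.8% to 27.4%) lay within 1 kb of one, against 8.05% (7.97% to 8.14%) of regions open in 1 to 9 lists. The step came between 9 and 10 lists: the share was 7.44% at 1 list, 8.50% at 5, 9.71% at 8 and 9.89% at 9. These intervals cover only the number of regions, which are not replicates. With every gene end moved by 10 kb, which keeps the region widths, the shares were 12.7% and 7.69%, so a smaller gap was still present away from the true ends. The share was higher in all-10 regions on each of 22 of 22 chromosomes, by 14.1 (chromosome 18) to 28.5 percentage points (chromosome 19).

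Which end it was could be told for protein-coding genes with a listed start, and not for the ends of other genes. Without chromosome 8, whose gene starts are not used here, 14.0% of all-10 regions lay within 1 kb of the 5′ end of such a gene and 2.23% within 1 kb of a 3′ end only, against 1.01% and 1.43% of the others. A listed transcription start lay inside 17.2% of the all-10 regions, 2.04% of the regions open in 9 lists and 0.771% of those open in 1 to 9. The nearest end was that of a protein-coding gene for 63.4% of the all-10 regions near an end, of a long non-coding RNA (lncRNA) gene for 26.7%, of a pseudogene for 6.78%, of a microRNA gene for 1.25% and of a tRNA gene for 0.951%. Among near regions open in fewer lists the order was lncRNA (42.6%), protein-coding (34.9%) and pseudogene (18.4%).

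Most all-10 regions were nonetheless away from gene ends. Of them 33820 (42.9%) lay over 10 kb from every gene end, against 59.5% of the others, and 3.32% lay over 100 kb away, against 6.04%. The median distance was 7048 bp against 14509.5 bp. Inside a gene but over 1 kb from its ends lay 46.2%, and outside genes 26.7%. A few of the distant ones were alternative starts: 724 of 32101 regions over 10 kb from a gene end (2.26%, without chromosome 8) held a listed start inside a longer gene, against 0.139% in regions open in fewer lists. Neighbouring all-10 regions were 16681.5 bp apart at the median. No sequence was searched away from listed starts, so the share of distant regions with a CTCF motif is not known.

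The larger the core, from 100 bp upwards, the more often the region was at a gene end. Of regions with a core of 100 to 199 bp, 11.3% lay within 1 kb of an end. The share was 14.9% at 200 to 399 bp, 25.8% at 400 to 599 bp, 46.1% at 600 to 799 bp and 68.6% at 800 to 999 bp. It reached 84.6% among the 7831 regions with a core of at least 1000 bp. The median core was 729 bp within 1 kb of an end and 211 bp over 10 kb away. Regions without a common base (14.8%) and with 1 to 99 common bases (11.9%) were near the low end of this range.

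The regions with the most core bases lay at genes of several functions. The first, with 2615 bp, of which the longest unbroken piece was 1430 bp, was at the start of CDH2, the neural cadherin, at chr18:28175153-28178561. Its peaks covered 2730 bp (DE) to 3301 bp (pNE_H), with a median of 3196 bp and 2913 bp in hPSC, so the narrowest list still covered most of the region. The next, 2606 bp, lay between the divergent genes ARHGEF40 and NDRG2 at chr14:21068573-21071909, with widths of 2857 bp to 3299 bp. The region at chr14:20681278-20684959 held a listed start of ANG and overlapped RNASE4, both ribonuclease genes, and 3 tRNA genes. Its core was 2604 bp, with a longest piece of 1651 bp. SEMA5B, which encodes a semaphorin, an axon guidance protein, had a core of 2564 bp at chr3:123026077-123028731, and its peaks were almost equal over the lists (2564 bp in pNE_T to 2655 bp in pNE_M). Its core was unbroken. The fifth was at an end of RIMS2, a synaptic scaffold gene on chromosome 8, with a core of 2544 bp and a longest piece of 1414 bp.

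Of the 5 largest cores over 10 kb from every gene end, 1 lay on chromosome 8, inside NCOA2, a nuclear receptor coactivator gene (2514 bp), and was not scored for a start. Of the other 4, 3 held a listed alternative start. They were at KLF12 (2436 bp, chr13:74133773-74136338), DAB1 (2399 bp, chr1:57422246-57425176), a gene of neuronal migration, and ZMYM2 (2177 bp, chr13:19957372-19960389). KLF12, a zinc finger repressor, had peaks of 2446 bp to 2556 bp in the 10 lists. The last lay inside SLC44A5 (2405 bp, chr1:75614514-75617057), 3400 bp from a listed start. Chosen after its values were seen, the largest core that was also over 10 kb from every listed start was 2089 bp inside NELL2, at chr12:44875014-44877243. It was followed by 2030 bp at chr17:30667132-30669607, inside a non-coding gene, and 1991 bp inside RORA, an orphan nuclear receptor gene, at chr15:60590944-60593333. At the NELL2 site the lists covered 2114 bp (pNE_M) to 2220 bp (pNE_H), a ratio of 1.05.

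The all-10 regions held a large part of the peaks of each list. The lowest share was 28.5% (pNE_H), the median 43.0% and the highest 53.3% (aNE). By bases the shares ran from 48.6% (pNE_H) through a median of 63.4% to 71.5% (aNE). These shares go with list length, as the longest list had the lowest and the shortest the highest, while the number of peaks in all-10 regions was similar, 85779 to 90929. Peaks covered more bases per region here than elsewhere in every list, a difference that the rule itself can set.

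Peaks covered a median of 534 bases per all-10 region in the hPSC list, 554 (DE), 533 (aNE) and 574 (pNE). The day 4 medians were 575 in aNE_T, 585 in aNE_M, 540 in aNE_H, 512 in pNE_T, 498 in pNE_M and 660 in pNE_H. At regions open in 1 to 9 lists the medians were 201 (hPSC) to 228 (pNE_H). The 2 ranges did not overlap, but wide peaks overlap others more often, so the rule itself can set this gap. Within 1 kb of a gene end the medians were 932 (pNE_M) to 1093 (pNE_H), and over 10 kb away 418 (pNE_M) to 568 (pNE_H). The ratio of the near to the far median was 1.92 to 2.36, so regions near ends were wider in each of the 10 lists.

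**Figure D2:**
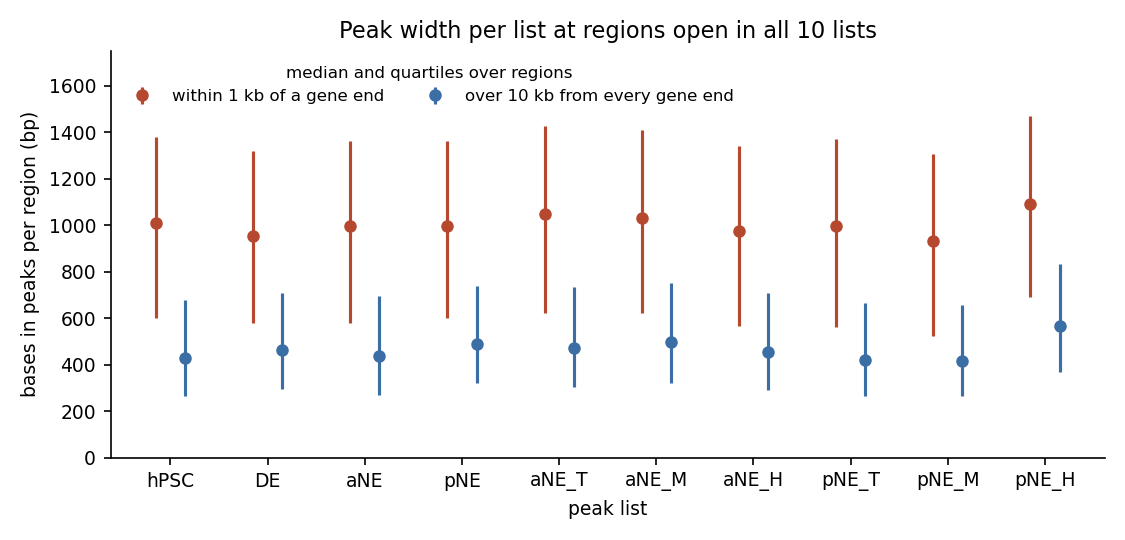
Bases in peaks per all-10 region (bp) in each peak list, as the median (point) and quartiles (line) over regions within 1 kb of a gene end (red) and over 10 kb from every gene end (blue). In each list the red median (932 to 1093 bp) is above the blue one (418 to 568 bp), and pNE_H has the highest of both.

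In this width the lists of the 2 origins overlapped, as did those of day 4 and of earlier days. The 3 aNE-derived day 4 lists had a mean of the medians of 566.7 bp ± 23.6 (SD, n = 3 lists) and the 3 pNE-derived lists 556.7 bp ± 89.8 (n = 3), a difference of 10.0 bp (exact permutation test, two-sided, p = 0.9; adjusted over 2 comparisons, 0.9). With 3 lists against 3 this test cannot give a p below 0.1. The 6 day 4 lists averaged 561.7 bp ± 59.0 (n = 6) and the 4 earlier lists 548.8 bp ± 19.4 (n = 4), a difference of 12.9 bp (exact permutation test, two-sided, p = 0.752; adjusted 0.9). Single lists decided the sign and size of the first value: it was 61.7 bp without pNE_H, 23.3 bp without aNE_H, -12.3 bp without pNE_T and -19.3 bp without pNE_M, with no test. Paired by medium, the aNE-derived list was wider by 63 bp in telencephalon and 87 bp in midbrain medium, and the difference was -120 bp in hindbrain medium (exact permutation test of 3 pairs by sign flips, two-sided, p = 1.0, where 3 pairs cannot go below 0.25). pNE_H was also the list with the most peaks, and the part of list length in its width was not tested. Lists stand for groups, so these tests speak of the spread between lists and not between replicates.

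Widths at one region were more alike near gene ends than far from them. Among the 53566 regions with 1 peak in each list, the widest list had 1.99 times the bases of the narrowest at the median. The ratio was 1.40 within 1 kb of a gene end and 2.24 over 10 kb away, and it was above 2 in 23.2% and 60.3% of these regions. Regions near ends were also wider, and the part of width in this ratio was not tested. pNE_H was the widest list at 25.8% of the regions, and pNE_M (18.7%) and pNE_T (16.6%) were most often the narrowest. Across these regions, which are not independent replicates, the Spearman correlation of widths between 2 lists was 0.714 (hPSC and pNE_T) to 0.895 (aNE_M and aNE_H), with a median of 0.815 over 45 pairs.

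The most even and the most uneven regions, among those with 1 peak in each list and a core of at least 100 bp, show the range. At the start of BRD10, at chr9:6006914-6008702, the 10 lists covered 1759 bp to 1786 bp, a ratio of 1.02. NFE2L2, the regulator of the oxidative stress response (chr2:177263474-177265531, 1992 bp to 2039 bp), and EGLN1, an oxygen sensor of the hypoxia response (chr1:231420830-231422809, 1912 bp to 1960 bp), were as even. At the other end, a region inside PDE4D, a cyclic AMP phosphodiesterase gene, at chr5:60262442-60263704 had 113 bp in hPSC and 633 bp in DE, then 522 bp (aNE) and 956 bp (pNE), and 697 bp (pNE_M) to 1236 bp (aNE_T) on day 4. A region outside genes at chr18:25604814-25606163 also had 113 bp in hPSC, and 1188 bp in pNE_H. A region inside LMX1A, a factor of the roof plate and of dopaminergic neurons, at chr1:165275106-165276511 had 136 bp in DE, 783 bp in hPSC and 1406 bp in pNE_H. These 3 were open in every list by the rule, and the nearest protein-coding gene end was 73239 bp away or farther.

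Regions just outside the rule were smaller. Those open in 9 lists had a median of 306 bp per open list against 557 bp at 10 lists, and 116 bp covered by at least 9 lists against 347 bp. The latter count is unequal: a base had to lie in every open list at 9 lists, but not at 10 lists. Wide peaks also overlap others more often, so the rule itself can set these gaps. The list without a peak was most often hPSC (5493 of 20481, 26.8%), then pNE_T (3914), pNE_M (3336) and aNE (2825), and least often aNE_M (348). Chosen by the widest stretch shared by the other 9, the region that lacked only hPSC was at chr1:67646001-67647299, 37902 bp from GADD45A, with 961 bp to 1290 bp in the other lists. The region that lacked only DE held the start of GAS6, a ligand of the TAM receptor kinases, at chr13:113862845-113864193, with 854 bp in hPSC and 1329 bp in pNE_H.

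At promoters the all-10 class was the common state. Of 21156 listed starts of protein-coding genes, 71.1% lay in an all-10 region, 7.46% in a region open in 1 to 9 lists and 21.4% in no region. Of the 15101 protein-coding genes with a listed start, called scored here, 11461 (75.9%) had at least 1 start in an all-10 region, and 2670 (17.7%) had none in any region. Genes without a listed start were not scored, here or in any class below. In each list 78.1% (aNE) to 80.0% (pNE_H) of the genes were open, and of those 94.9% to 97.2% were all-10 genes. Of the starts in all-10 regions, 90.7% lay in the core. For lncRNA genes the share was lower: 3558 of 11145 with a listed start (31.9%) had one in an all-10 region. Another 12.6% had one in a region of 1 to 9 lists, and 55.5% in none.

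**Figure D3:**
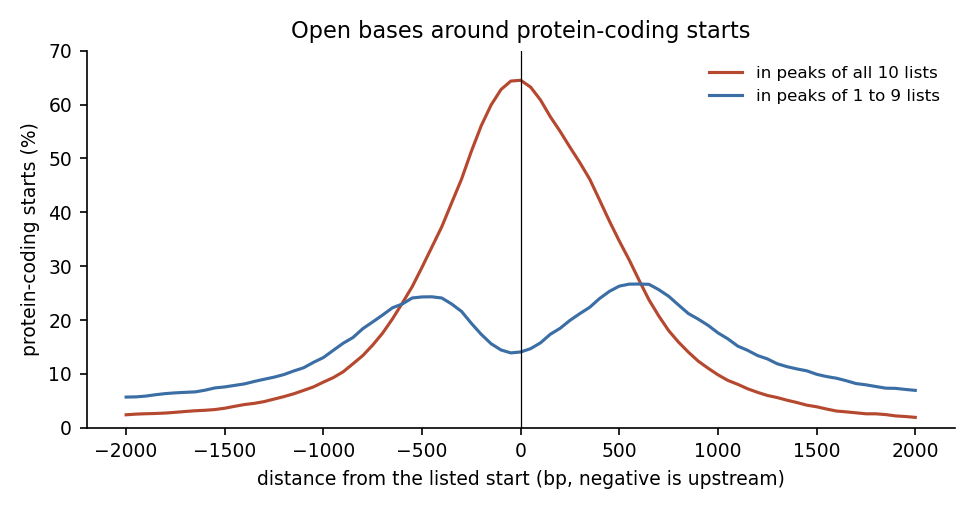
Percentage of 21156 protein-coding starts whose base at a given distance (bp, negative upstream) lies in peaks of all 10 lists (red) or of 1 to 9 lists (blue). The red line peaks at the start at 64.5%, where the blue line has a dip of 14.1%, and the blue line is highest, 26.7%, at 600 bp.

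The bases common to all lists were centred on the start. They covered 64.5% of the starts themselves, fell to 50% of that height at about -450 and 500 bp, and covered 2.42% at 2 kb upstream and 1.94% at 2 kb downstream. Bases open in 1 to 9 lists formed shoulders around this, at 24.3% at -450 bp, 14.1% at the start and 26.7% at 600 bp. Starts with an upstream start on the opposite strand within 1 kb, of any listed gene, called divergent, were in all-10 regions more often: 93.5% of 3998 divergent protein-coding starts against 65.9% of the other 17158, and 76.3% against 22.2% of lncRNA starts. Of 3867 genes with at least 2 listed starts, 2024 (52.3%) had every start in an all-10 region, and 1075 (27.8%) had both a start in one and a start in no region.

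Genes of basic cell functions had a start in an all-10 region almost without exception, to be read against the 75.9% of all scored protein-coding genes. All members with a listed start did so among mitochondrial ribosomal proteins (68 of 68), aminoacyl tRNA synthetases (25 of 25), the core splicing proteins (30 of 30), Mediator subunits (19 of 19) and RNA polymerase II subunits (8 of 8). The same held for the CCT chaperonin (7 of 7), the cohesin genes with CTCF (8 of 8) and a set of reference housekeeping genes (11 of 11). The cytosolic ribosomal proteins counted 59 of 61, respiratory chain subunits 59 of 62, translation initiation factors 42 of 44 and proteasome subunits 30 of 33. Replication-dependent histones, made in S phase, counted 57 of 64, and zinc finger genes named ZNF 386 of 422. Genes can share a region, so the counts are not independent. No test was made of any class.

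Values by list follow for CTCF and for members with the largest core of their class, a choice that itself goes with even widths. Members not chosen so ranged from even (MED19, 1128 bp in pNE_M to 1251 bp in aNE_T) to uneven (POLR2L, 400 bp in DE to 1175 bp in aNE_T). At POLR2H, a subunit shared by the RNA polymerases, the core was 2111 bp and the lists covered 2124 bp (aNE_H) to 2344 bp (aNE_T). CTCF, the insulator protein, had 1823 bp (aNE_H) to 2186 bp (aNE_T), and PDS5A 1825 bp (pNE) to 1973 bp (pNE_H). MED17, whose promoter is printed above, had 1290 bp (pNE) to 1384 bp (aNE_T). GAPDH, of glycolysis, had 1980 bp (DE) to 2840 bp (aNE_H), and RPS29 had 1684 bp (aNE_H) to 2103 bp (pNE_H).

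**Figure D4:**
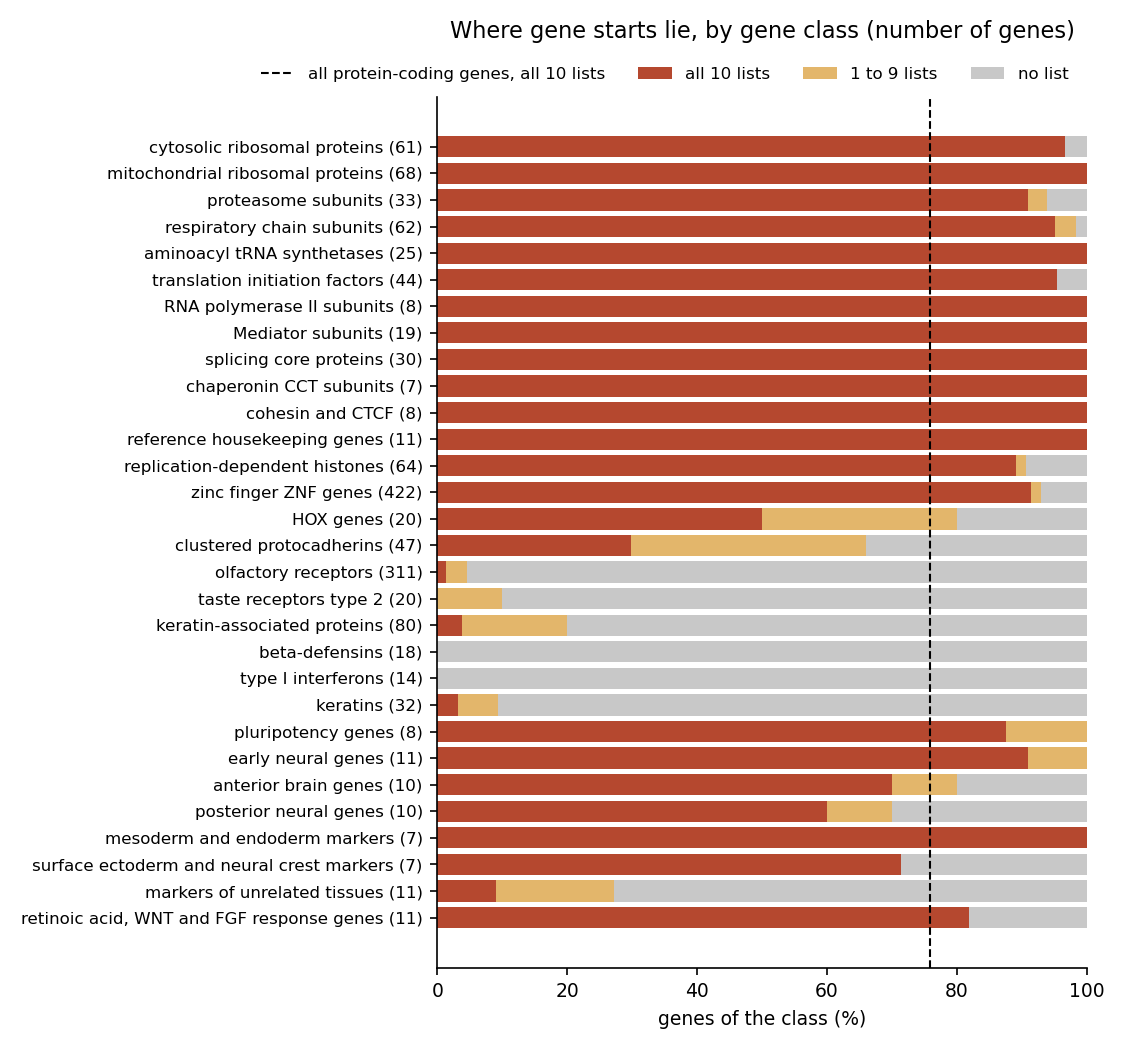
Percentage of the genes of each class (number with a listed start in brackets) with a start in a region open in all 10 lists (red), at best in one open in 1 to 9 lists (yellow) or in no region (grey). The dashed line marks the 75.9% of all protein-coding genes with a listed start that had one in an all-10 region. Classes of basic cell functions are at 89.1% or more, and receptor and barrier families at 3.75% or less.

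The exceptions outside the ZNF genes can be named. No peak lay at the listed starts of COX7B2 and PSMB11, and the starts of COX8C and COX6A2, which encode testis and muscle forms of cytochrome c oxidase subunits, were open in 1 (hPSC) and 2 lists (hPSC and aNE_M). PSMA8, a proteasome subunit of germ cells, was open in 6 lists. The intronless copies RPL10L, EIF2S3B and EIF5AL1 had no peak at the listed start. RPL24 and PSMB5, which all cells use, also had none, and the nearest all-10 region was 17439 bp and 24375 bp away; why was not tested. Among histones, H1-6, H2AC1, H2BC1, H2BC3, H3C3 and H4C7 were without a peak, and H1-1 was open in 4 lists.

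Families used by few cell types were nearly absent. A start in an all-10 region was found for 4 of 311 olfactory receptors, 3 of 80 keratin-associated proteins, 1 of 32 keratins, and for 0 of 20 type 2 taste receptors, 0 of 18 beta-defensins and 0 of 14 type I interferons. In no region lay 297 olfactory receptors, all 18 beta-defensins and all 14 interferons, against 17.7% of all scored protein-coding genes. The 4 olfactory receptors were OR1F1, OR2L13, OR52N2 and OR5A2, named since they are so few, and OR1F1 had peaks of 1682 bp (aNE_H) to 1928 bp (aNE_T). The keratin was KRT8, a simple epithelial keratin, with 244 bp (pNE_M) to 983 bp (DE) and a core of 96 bp. Of 11 markers of unrelated tissues, 1 was an all-10 gene, the skeletal muscle actin ACTA1 (626 bp to 1222 bp), and 8 had no peak, among them the liver genes ALB and AFP and the hormone genes INS and GCG. The cardiac gene TNNT2 was open in 3 lists. Clustered protocadherins, cell surface proteins of neurons, were in between, with 14 of 47 in all-10 regions and 17 in regions open in 1 to 9 lists.

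Developmental genes are given by list, against the 75.9% of all scored protein-coding genes. Only the members that have a listed start are counted. Of 13 pluripotency genes 8 had one, and 7 of the 8 were all-10 genes, with NANOG the exception. SOX2 had 1555 bp in hPSC and 2302 bp in pNE_T, and ZFP42, a pluripotent cell marker, had 788 bp in hPSC, 666 bp in DE and 307 bp (pNE_T) to 609 bp (aNE_H) on day 4. Early neural genes counted 10 of 11, of 15 in the list. HES5, a Notch target, was open in 9 lists, all but aNE_H. PAX6, a neural progenitor factor, had 764 bp (DE) to 1611 bp (pNE_T), and of 12 mesoderm and endoderm markers 7 had a listed start and were all-10 genes, among them EOMES (1407 bp in pNE_M to 1900 bp in hPSC) and TBXT (812 bp in aNE_H to 1319 bp in hPSC). An open start is no measure of expression, and none was measured here.

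Anterior and posterior genes had shares below or near that of all scored genes. Anterior brain genes counted 7 of 10 and posterior neural genes 6 of 10. OTX2, the forebrain and midbrain factor, was open in 9 lists, all but pNE_T, with 893 bp in aNE and 169 bp in pNE_H. In midbrain medium it had 261 bp (aNE_M) and 277 bp (pNE_M). Other anterior genes had no common order by origin. RAX, FEZF1 and HESX1 were widest in pNE_H, SIX6 in pNE_T, OTX1 in pNE_M and DMBX1 in aNE_T. EN2 was as wide in aNE_M as in pNE_H. HOXB1, a hindbrain gene, was open in 7 lists and had no peak in the 3 aNE-derived day 4 lists. Its widest peak, 800 bp, was in hPSC. The retinoic acid, WNT and FGF response genes counted 9 of 11. RARB, a retinoic acid receptor, had 1468 bp (pNE_M) to 1837 bp (pNE_H), and SPRY1, an FGF feedback inhibitor, had 1958 bp (DE) to 2630 bp (aNE_M). Of surface ectoderm and neural crest markers 5 of 7 were all-10 genes, with no peak at the listed starts of TFAP2B and TP63.

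The HOX genes, which set position along the body axis, counted 10 of 20 with a listed start. Another 6 were in regions open in 1 to 9 lists and 4 in none. HOXD13 was even over the lists (1112 bp in hPSC to 1253 bp in pNE_M). HOXA2 was not: its region was open in all lists without a base common to them, with 430 bp in hPSC and 343 bp in DE, then 1934 bp (aNE) and 1858 bp (pNE) on day 2. The day 4 values were 1038 bp in aNE_T, 548 bp in aNE_M, 339 bp in aNE_H, 1829 bp in pNE_T, 687 bp in pNE_M and 2560 bp in pNE_H. The low values were thus in hPSC, DE and aNE_H. At HOXA2 the pNE-derived list covered more bases than the aNE-derived one in each of the 3 media. With 1 list per group this was not tested. Among the other all-10 HOX genes the same order was seen at HOXA3, HOXA4, HOXA10, HOXD8 and HOXD13. HOXA13 had the opposite order in each medium (1682 bp in aNE_M, 1456 bp in pNE_M), and HOXD1, HOXD10 and HOXD11 were mixed. The share of all all-10 regions with either order was not counted, so nothing particular to HOX genes is shown. Over all all-10 regions, the aNE-derived median was higher in telencephalon and midbrain medium and lower in hindbrain medium. NR2F2, a nuclear receptor gene, was the other posterior gene open in all lists without a common base (155 bp in pNE_T to 753 bp in pNE_H).

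Some genes missed the rule by little. The listed start of SPRY4 was 15 bp from an all-10 region with a core of 1731 bp, that of EMX2 was 26 bp away, that of BARHL1 136 bp and that of LEF1 171 bp. Counting a start within 500 bp of a region in place of inside it gave 77.3% of all scored protein-coding genes.

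The promoter sequence went along with these classes. The promoter window was 250 bases before to 50 after the listed start. For protein-coding genes 21030 promoter windows were used, fewer than the listed starts. The ratio of observed to expected CpG had a median of 0.831 at starts in all-10 regions (14947 promoters), 0.271 at starts in regions open in 1 to 9 lists (1571) and 0.234 at starts in no region (4512). The GC content was 66.3%, 53.7% and 47.7%. A ratio of 0.6 or more, a common mark of CpG islands, was found in 82.8%, 14.3% and 12.1%. Read the other way, 94.2% of 13150 promoters with such a ratio, and 32.6% of 7880 with a lower one, were at all-10 regions.

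**Figure D5:**
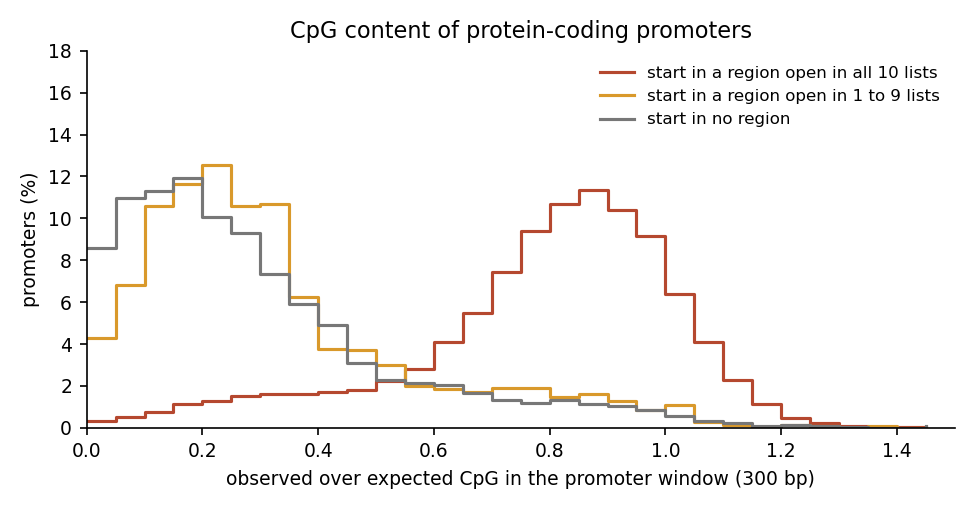
Distribution of the ratio of observed to expected CpG over protein-coding promoter windows (300 bp, percent of promoters in bins), for starts in regions open in all 10 lists (red), in 1 to 9 lists (yellow) and in no region (grey). The red curve has its median at 0.831, the yellow and grey ones at 0.271 and 0.234, so that promoters open in only some lists resemble those open in none.

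Motifs that contain CG were most frequent at all-10 regions. Each motif was searched on both strands of the window by its exact letters: the GC box CCGCCC (bound by SP factors), the ETS motif CCGGAAGT, the NRF1 motif GCGCATGCG, the YY1 motif AAGATGGCG, the CRE (cyclic AMP response element) TGACGTCA and the E box CACGTG. Likewise searched were the CCAAT box by its name, the box for the TATA binding protein by TATAAA, the inner part of the CTCF motif by CCAGNNGGC, the nuclear receptor hexamer by AGGTCA, the POU factor octamer by ATTTGCAT and the ZNF143 motif by ACTACAATT. None of these contains another. The GC box was in 71.5% of promoters at all-10 regions, 26.6% of those open in 1 to 9 lists, 17.5% of those in no region and 56.6% of all. The ETS motif was in 7.26%, 0.955% and 0.820% (5.41% of all), the YY1 motif in 3.30%, 0.255% and 0.266% (2.42%), and the NRF1 motif in 3.14%, 0.0637% and 0.532% (2.35%). CRE was in 2.92%, 1.15% and 0.621% (2.29%) and the E box in 9.43%, 5.79% and 5.05% (8.22%). The ZNF143 motif, which has no CG, was in 0.502% of promoters at all-10 regions, in none of 1571 open in 1 to 9 lists (upper Wilson limit 0.244%) and in 0.111% of those in no region (0.380% of all).

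The remaining motifs went in different directions. CCAAT was about as frequent in all 3 sets (34.1%, 33.5% and 35.7%, 34.4% of all). The CTCF core was in 14.5%, 10.1% and 8.02% (12.8%). TATA went the other way, with 5.12%, 13.6% and 22.8% (9.54%), as did the hexamer, with 9.28%, 17.7% and 18.3% (11.8%), and the octamer, with 1.31%, 2.48% and 2.30% (1.61%). Among promoters with a CpG ratio under 0.6 the differences for the GC box, ETS and TATA were still present. An all-10 start was found at 55.3% of 1674 with a GC box against 26.4% of 6206 without. With an ETS match the share was 67.8% of 59, against 32.3% without. With TATA it was 17.0% of 1404, against 35.9% of 6476 without. At a ratio of 0.6 or more these gaps were smaller: 95.5% against 89.4% for the GC box, 96.9% against 93.9% for ETS and 87.2% against 94.5% for TATA. There the E box (93.7% with, 94.2% without) and the octamer (97.2% with, 94.1% without) went against their direction over all promoters. These are shares of letters in one window, and motifs that contain CG are more frequent wherever CpG is.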

How the data were processed

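Per the labels' protocols, nuclei of 50000 cells per library were treated with Tn5 and the libraries sequenced. The authors deposited 1 peak list per group; the unit is a position (start and end), with no count, score or replicate value used. The submitters' processing notes name Bowtie2, MACS2, bedtools and deepTools and the build hg38; the peak threshold and the way replicates were combined are not given in the sources used here. Peaks on chromosomes 1 to 22 were merged (overlap of at least 1 bp) with Python 3.11.15, numpy 2.4.6 and pandas 2.3.3. Exact permutation tests were run with scipy 1.17.1. The 2 main width comparisons were adjusted by the Benjamini-Hochberg method with statsmodels 0.14.6. The merging was tested on simulated data (56 regions, 0 errors). Gene ends, starts and promoters come from RefSeq tables of GRCh38.p14, and gene starts of chromosome 8 are not used here. The rule for named regions took the largest cores near and far from gene ends, the most even and uneven widths, the widest region lacking each list, and in each class the largest core and the fewest lists. The members, gene lists and motifs were chosen with earlier results of these data known. Alternatives to each choice are given in the closing section.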

Additional observations from a re-analysis of the deposited data

Results flagged for a closer look

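The median width at all-10 regions moved in opposite directions between telencephalon and hindbrain medium: it was -35 bp in the aNE-derived lists (575 bp to 540 bp) and 148 bp in the pNE-derived lists (512 bp to 660 bp). There is 1 list per group, and the difference between origins was not tested. The lists of pNE_H and pNE_T differ in length, 302355 against 207744 peaks.

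Chromosomes X and Y, outside the rule, held 2850 regions open in all 10 lists, 16.5% of 17274 merged regions there (Wilson 95% interval 16.0% to 17.1%), against 16.6% on chromosomes 1 to 22. Of them 24.2% lay within 1 kb of a gene end, against 6.69% of the regions open in fewer lists.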

How the results depend on the processing

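The count of 78808 regions was 31968 when a list had to cover 50% of a region and 40539 with only the widest 50% of each list's peaks; in every other setting run it was within 1.5 times of the main count, and leaving out each list in turn gave 79165 to 84331.

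The share within 1 kb of a gene end (27.1%) was 45.4% at 50% coverage (8.74% in regions open in fewer lists), 41.2% with the widest 50% (9.23%) and 32.0% with lists cut to one length (8.57%). It was 24.0% for 500 bp (4.93%), 43.7% for 5 kb (25.5%), 19.2% for protein-coding ends only (2.95%), 12.7% with ends moved by 10 kb (7.69%), and 25.8% to 27.0% without each list. In 20 of 20 settings other than the moved ends it was higher in all-10 regions.

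The share of protein-coding genes (75.9%) was 67.9% at 50% coverage, 73.2% with the widest 50%, 74.9% with lists of one length, 67.7% with 500 bp windows, 71.7% for intervals covered by all 10 lists and 77.3% for a start within 500 bp. Chosen after seeing the data, it was 71.1% for starts in place of genes and 71.7% for starts in bases of all 10 lists. Without each list it was 75.8% to 76.0%.

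The mean of the 10 median widths (556.5 bp) was 866.6 bp at 50% coverage, 840.3 bp with the widest 50%, 670.8 bp with lists of one length and 245 bp for common intervals, and 539.7 to 551.7 bp without each list. The difference between origins, 10.0 bp, was 75 bp without the hindbrain medium lists and -19.3 to 61.7 bp without each day 4 list, with -12.3 bp without pNE_T (all chosen after seeing the data, with no test). In the planned settings both width differences kept their sign, with an exact permutation p of 0.486 to 1.0. No paired analysis was possible because the lists carry no replicate numbers; the day 4 lists could be paired only by medium, which, added after seeing the data, gave 10.0 bp (exact permutation p = 1.0). Adding X and Y left all 4 values close to the main ones.

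Peak calls carry no depth here, so a region without a peak in a list is not shown to be closed there. The calling threshold of the lists is not given in the sources used here.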

Other observations

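Short RNA genes were counted where they overlapped an all-10 region, with no matched background. Of 439 tRNA genes, 267 (60.8%) did, and 114 overlapped no region. Small nuclear RNA genes counted 47 of 151 (31.1%), ribosomal RNA genes 10 of 49 (20.4%) and microRNA genes 234 of 1793 (13.1%). Small nucleolar RNA genes, most of which lie inside introns of host genes, counted 30 of 1150 (2.61%), and pseudogenes 707 of 14324 (4.94%). Genes of one cluster can share a region, so these counts are not independent. The classes also differ in length (a median of 73 bp for tRNA genes and 639 bp for pseudogenes), and copies of tRNA, small nuclear and ribosomal RNA genes are near-identical, where the mapping of reads is uncertain.

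lncRNA promoters showed the same order of CpG content. Their ratio of observed to expected CpG had a median of 0.760 over 3904 promoters, against 0.234 at regions open in 1 to 9 lists and 0.203 in no region. A ratio of 0.6 or more was found in 67.0% of those at all-10 regions, against 82.8% of protein-coding ones. The GC box was in 58.9%, 15.4% and 9.28% of them, and TATA in 4.99%, 14.0% and 20.9%.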
